A study of Homo sapiens with 7 samples.

Results

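The genes of the RAS, RAF, MEK and ERK cascade were followed in SUM159, a mesenchymal triple-negative breast cancer cell line, after loss of the tyrosine phosphatase SHP2. The set is given by gene symbol and holds 7 genes. Of these, 5 had an array probe with a single gene symbol, each with 1 probe, out of 18417 genes measured, and the other 2 are not analysed here. The 5 were HRAS, ARAF, MAP2K1, MAP2K2 and MAPK3. All cells carried a doxycycline-inducible lentiviral hairpin and received doxycycline in 2D culture for 15 days. The hairpin was SHP2 sh1 on 2 Human Gene 1.0 ST arrays, SHP2 sh2, a second sequence against SHP2, on 3 arrays, and a control hairpin (Ctrl shRNA) on 2 arrays. The controls therefore carried the vector and the drug as well, and no array came from untreated cells. The labels do not say whether arrays of a group were separate cultures, and the p-values therefore speak only of variation among these arrays, possibly technical.

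RAS proteins are small GTPases that switch on when a receptor recruits an exchange factor, and SHP2 acts upstream of this step. GTP-bound RAS recruits RAF kinases to the membrane, RAF phosphorylates the dual-specificity kinases MEK1 and MEK2, and these phosphorylate the ERK kinases. The cascade is controlled mainly by phosphorylation and by GTP loading, which an expression array does not measure. The comparison addressed whether the RNA of the cascade genes themselves differed once SHP2 was depleted.

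PTPN11, which encodes SHP2, was 7.90 and 6.93 in the SHP2 sh1 group and 7.96, 7.20 and 7.89 in the SHP2 sh2 group, against 9.53 and 9.18 in the Ctrl shRNA group (log2 expression), so the 5 SHP2 hairpin arrays lay below both controls. Of all genes, 7.17% lay below both controls on all 5. Averaged over the hairpins, the log2 fold change of PTPN11 was -1.80, and PTPN11 itself was not called (adjusted p = 0.758 from limma). The absence of a call in this fit is therefore no sign that a gene did not change. Replicate 2 of SHP2 sh1 and replicate 2 of SHP2 sh2 diverged from the rest and are called the divergent arrays here. Correlations over all probes ran from 0.981 to 0.992 among the other 5 arrays, from 0.930 to 0.965 between the first of these 2 arrays and those 5, and from 0.886 to 0.936 for the second. On the 2 divergent arrays the brightest 25% of genes, which include all 5 cascade genes, were lower than the control mean by a median shift of -0.44 and -0.83, and the dimmest 25% higher by 0.23 and 0.49. Of 5 mesenchymal markers, VIM and FN1 were between 11.6 and 12.9 on every array, whereas on the 2 divergent arrays ZEB1 was 7.33 and 7.01, against 8.40 and 8.05 on the controls, and CD44 was 11.2 and 10.7, against 11.9 and 11.8. LOX, the remaining marker, was 7.82 and 7.06 there, against 6.78 and 7.42 on the controls. The median shift of the 5 was -0.13 and -0.53 on the divergent arrays. CDH1, an epithelial marker, was at 7.42 and 7.12 on the 2 divergent arrays, at 5.16 to 6.20 on the other SHP2 hairpin arrays and at 5.19 and 5.32 on the controls. On those 2 arrays the median shift of 5 luminal and epithelial markers was 0.49 and 0.85, of 5 blood cell markers 0.35 and 0.59 and of 5 endothelial markers 0.25 and 0.57. The part of these shifts in the results was not tested, and the values of the cascade genes are therefore also given without the 2 arrays.

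None of the 5 cascade genes passed an adjusted p of 0.05 in limma in any of the 4 comparisons (SHP2 sh1, SHP2 sh2 or the mean of the hairpins, each against Ctrl shRNA, and SHP2 sh2 against SHP2 sh1). The share of all genes called was likewise 0% in each. At an unadjusted p under 0.05 the shares of all genes were 1.09%, 2.35%, 1.94% and 0.63%, and 0 of the 5 genes were among them. MAPK3 was the 1 member of 5 whose SHP2 hairpin arrays did not overlap the controls, where 15.3% of all genes did not, in either direction. On each of the 2 divergent arrays all 5 members lay outside both controls. HRAS, MAP2K2 and MAPK3 were above them there, and ARAF and MAP2K1 below. The share of all genes outside both controls on these 2 arrays was not counted, so this placement has no background. By sign alone, 3 members were below 0 and 2 above in each comparison. Of all genes, 43.5% were below 0 and 56.4% above with SHP2 sh1, 42.8% and 57.2% with SHP2 sh2, 42.0% and 58.0% for the mean, and 44.7% and 55.3% between the hairpins. In bulk RNA, fewer cells with a transcript and less of it per cell cannot be told apart.

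**Figure D1:**
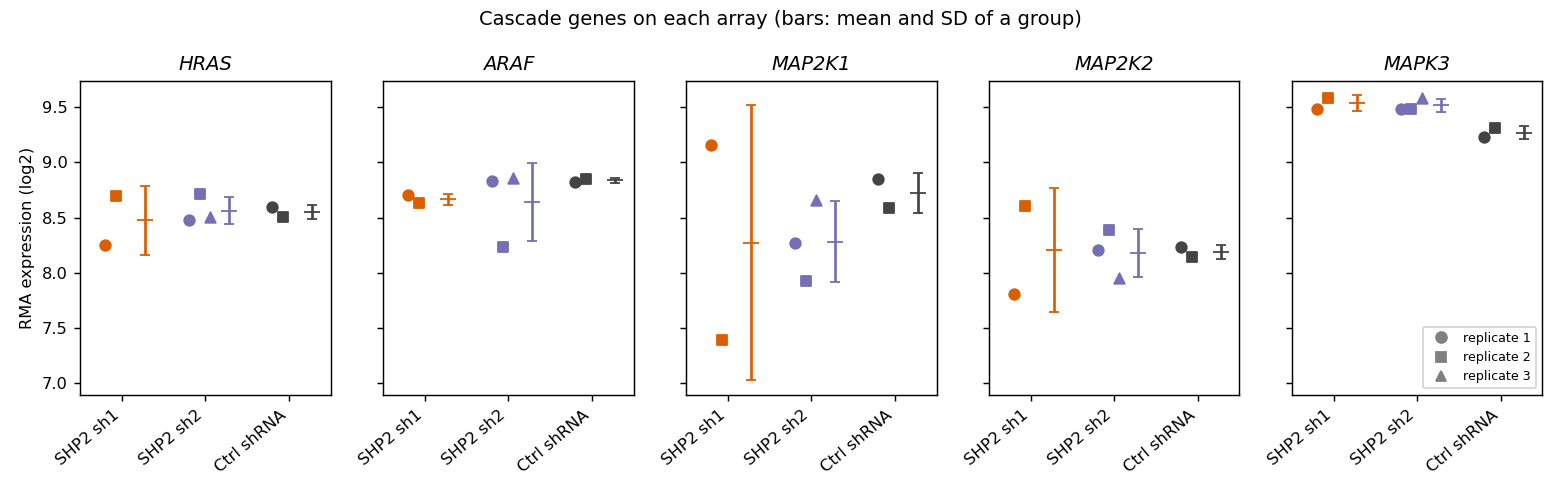
RMA expression (log2) of the 5 cascade genes on the 7 arrays, arranged by hairpin, with symbols for replicate numbers and bars for the mean and SD of a group (heights of different genes come from different probes and are not comparable). MAPK3 lay between 9.48 and 9.58 with the SHP2 hairpins, above the controls at 9.22 and 9.31, whereas MAP2K1 spread from 7.39 to 9.16.

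The promoters of 3 kinase genes are shown as examples. MAPK3 was the 1 member of 5 on 1 side of the controls throughout, where 15.3% of all genes did not overlap them. MAP2K1 and MAP2K2 are the paralogous MEK genes. They lay on opposite sides of the controls on the 2 divergent arrays, as ARAF and HRAS also did. Each promoter window is the 250 bases before the first RefSeq start site, 5′ to 3′ in the gene's direction (GRCh38.p14). Capitals mark GGGCGG, the core of GC boxes, or CACGTG, an E-box, on either strand.
MAPK3 chr16:30123221-30123470 (- strand): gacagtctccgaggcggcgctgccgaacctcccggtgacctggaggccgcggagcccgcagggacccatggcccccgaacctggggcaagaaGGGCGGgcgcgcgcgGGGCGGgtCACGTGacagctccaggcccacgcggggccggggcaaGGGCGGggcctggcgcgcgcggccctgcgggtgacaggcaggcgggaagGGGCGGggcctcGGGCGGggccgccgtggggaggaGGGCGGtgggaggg
MAP2K1 chr15:66386662-66386911 (+ strand): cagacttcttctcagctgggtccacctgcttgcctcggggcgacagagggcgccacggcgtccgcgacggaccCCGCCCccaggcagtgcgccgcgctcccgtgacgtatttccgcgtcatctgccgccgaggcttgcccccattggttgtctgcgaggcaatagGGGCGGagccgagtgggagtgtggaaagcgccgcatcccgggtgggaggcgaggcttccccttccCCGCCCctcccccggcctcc
MAP2K2 chr19:4124123-4124372 (- strand): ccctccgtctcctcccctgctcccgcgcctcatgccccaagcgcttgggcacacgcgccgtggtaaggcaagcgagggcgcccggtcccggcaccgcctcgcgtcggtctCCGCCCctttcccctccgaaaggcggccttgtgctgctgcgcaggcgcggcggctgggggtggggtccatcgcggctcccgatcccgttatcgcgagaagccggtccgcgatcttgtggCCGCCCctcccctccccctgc
The MAPK3 window held 6 matches to GGGCGG and 1 to CACGTG, and its GC content was 80.4%. MAP2K1 held 3 and MAP2K2 held 2 matches to GGGCGG, with 71.2% and 74.0% GC. In windows of the same length before 27305 genes, 42.3% held GGGCGG, 6.49% held CACGTG and the median GC content was 58.0%. The ETS core CCGGAAG, in 8.82% of windows, occurred in none of these 3 and once in that of HRAS. TGACGTCA and TGANTCA, the sites named for CREB and AP-1 (1.77% and 6.60% of windows), were not among the letters of any of the 5 genes' first-listed windows. MAP2K1 and MAP2K2 each have a second listed start, whose window held none of the 5 motifs. These are letter matches, with none of them tested as a site.

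At the RAS step, HRAS (chromosome 11, gene ID 3265) encodes a membrane-bound GTPase that recruits RAF. It was 8.26 and 8.69 in the SHP2 sh1 group and 8.48, 8.71 and 8.50 in the SHP2 sh2 group, against 8.59 and 8.50 in the Ctrl shRNA group. Of the 5 SHP2 hairpin arrays, 2 lay above both controls, the 2 divergent ones, and 2 below both, so the groups overlapped. The means were 8.47 ± 0.31 (SD, n = 2) for SHP2 sh1, 8.56 ± 0.13 (SD, n = 3) for SHP2 sh2 and 8.55 ± 0.06 (SD, n = 2) for Ctrl shRNA. Averaged over the hairpins, the log2 fold change was -0.03 with a standard error of 0.19 and a 95% confidence interval of -0.49 to 0.43 (adjusted p = 0.937 from limma). Without the 2 divergent arrays it was -0.18, with an interval of -0.36 to 0.0071 (adjusted p = 0.598 from limma). There SHP2 sh1, then 1 array, gave -0.29 (adjusted p = 0.448 from limma) and SHP2 sh2 gave -0.06, with the spread taken from the other groups and the lone array assumed to vary like them. The direction of HRAS for the mean also turned under scaling, to 0.19 with cyclic loess and 0.21 with quantile normalization of the summarised values.

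At the RAF step, ARAF (chromosome X, gene ID 369) encodes a serine/threonine kinase that phosphorylates MEK. It was 8.70 and 8.63 in the SHP2 sh1 group and 8.83, 8.23 and 8.85 in the SHP2 sh2 group, against 8.82 and 8.85 in the Ctrl shRNA group. SHP2 sh2 replicates 1 and 3 lay at -0.0050 and 0.02 from the control mean, and the groups overlapped. The lowest value came from SHP2 sh2 replicate 2, at -0.60 from the control mean, an array where the brightest 25% of genes had a median of -0.83. The log2 fold change was -0.17 with SHP2 sh1, -0.20 with SHP2 sh2 and -0.18 for the mean, where the standard error was 0.22 and the interval -0.72 to 0.35 (adjusted p = 0.758 from limma). Leaving out the divergent arrays, the change for SHP2 sh2 was 0.0063 and that for the mean -0.06 (-0.22 to 0.09). Cyclic loess gave 0.06 and quantile normalization 0.04 for the mean, so the sign of ARAF depended on the scaling.

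At the MEK step, MAP2K1 encodes MEK1 (chromosome 15, gene ID 5604), which phosphorylates ERK. It was 9.16 and 7.39 in the SHP2 sh1 group and 8.27, 7.92 and 8.66 in the SHP2 sh2 group, against 8.85 and 8.59 in the Ctrl shRNA group. SHP2 sh1 replicate 1 held the highest value of all 7 arrays and SHP2 sh1 replicate 2 the lowest, a range of 1.76. With SHP2 sh2, replicates 1 and 2 lay below both controls and replicate 3 between them. The log2 fold change was -0.45 with SHP2 sh1, -0.44 with SHP2 sh2 and -0.44 for the mean (standard error 0.47, interval -1.57 to 0.69, adjusted p = 0.758 from limma). Between the hairpins it differed by 0.0086 (interval -1.21 to 1.23). The value of SHP2 sh1 averaged its 2 far-apart arrays, and the difference between the hairpins was 0.89 without SHP2 sh1 replicate 1 and -0.87 without SHP2 sh1 replicate 2. Leaving out both divergent arrays, SHP2 sh1, then 1 array, was at 0.44, SHP2 sh2 at -0.26 and the mean at 0.09 (-0.43 to 0.61, adjusted p = 0.894 from limma). SHP2 sh2 then differed from SHP2 sh1 by -0.69 (adjusted p = 0.263 from limma), where the lone SHP2 sh1 array was assumed to vary like the other groups. Leaving out SHP2 sh1 replicate 2 alone gave a mean of -0.00043, and leaving out SHP2 sh1 replicate 1 alone gave -0.88.

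MAP2K2 encodes MEK2 (chromosome 19, gene ID 5605), the other kinase that phosphorylates ERK. It was 7.81 and 8.61 in the SHP2 sh1 group and 8.20, 8.39 and 7.95 in the SHP2 sh2 group, against 8.23 and 8.14 in the Ctrl shRNA group. The 2 arrays above both controls were the divergent ones, and the 2 below both were SHP2 sh1 replicate 1 and SHP2 sh2 replicate 3. The group means lay close together, at 8.21 ± 0.56 (SD, n = 2) for SHP2 sh1, 8.18 ± 0.22 (SD, n = 3) for SHP2 sh2 and 8.19 ± 0.06 (SD, n = 2) for Ctrl shRNA. The log2 fold change for the mean was 0.0096 (standard error 0.26, interval -0.61 to 0.63, adjusted p = 0.985 from limma). Without the 2 divergent arrays it was -0.24 (-0.56 to 0.08, adjusted p = 0.633 from limma), and with cyclic loess or quantile normalization of all 7 arrays it was 0.17 or 0.23. For SHP2 sh2 alone it was -0.0044 as deposited, but 0.20 and 0.25 under these scalings.

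The difference between the 2 MEK genes within an array removes any shift that both share. MAP2K2 minus MAP2K1 was -1.34 and 1.21 with SHP2 sh1 and -0.07, 0.46 and -0.70 with SHP2 sh2, against -0.62 and -0.45 with Ctrl shRNA (log2). It was above both controls on 3 of 5 SHP2 hairpin arrays and below both on the other 2. The difference averaged -0.09 ± 0.99 (SD, n = 5) with the SHP2 hairpins and -0.53 ± 0.12 (SD, n = 2) with Ctrl shRNA, a shift of 0.45 (exact permutation test, two-sided, p = 0.667). The 21 possible splits of 5 against 2 arrays allow no p below 0.095. The shift was -0.17 without the 2 divergent arrays. On those 2 arrays MAP2K1 lay -1.33 and -0.80 from the control mean, whereas MAP2K2 lay 0.42 and 0.20 above it, beside medians of -0.44 and -0.83 for the brightest 25% of genes. HRAS (0.14 and 0.16) and MAPK3 (0.32 and 0.21) were also above the control mean there.

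**Figure D2:**
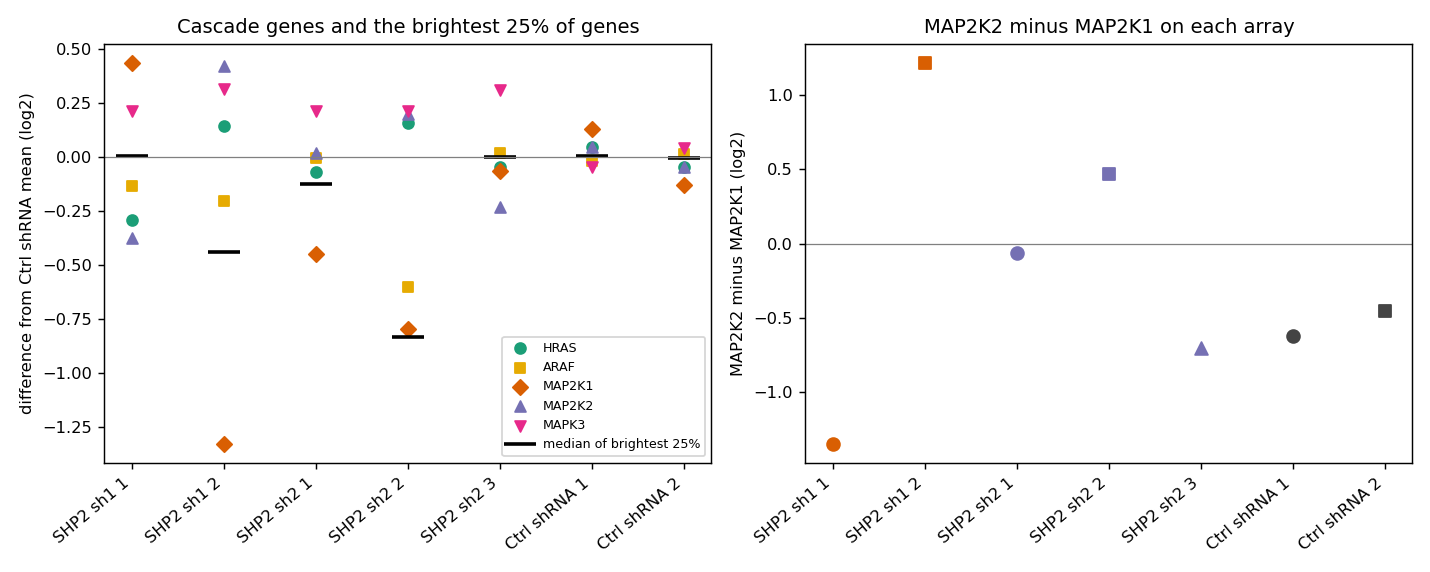
Left, the difference of each cascade gene from its Ctrl shRNA mean on each array (log2), with a black bar for the median of the brightest 25% of genes, and, right, MAP2K2 minus MAP2K1 on each array (log2). On SHP2 sh1 replicate 2 and SHP2 sh2 replicate 2 the black bars stand at -0.44 and -0.83, MAP2K1 at -1.33 and -0.80, and MAP2K2 at 0.42 and 0.20.

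At the ERK step, MAPK3 (chromosome 16, gene ID 5595) encodes ERK1, a last kinase of the cascade, which phosphorylates transcription factors and other kinases. It was 9.48 and 9.58 in the SHP2 sh1 group and 9.48, 9.48 and 9.58 in the SHP2 sh2 group, against 9.22 and 9.31 in the Ctrl shRNA group. All 5 SHP2 hairpin arrays were above both controls, by a gap of 0.17 between the lowest of the 5 and the higher control. This held for 1 of the 5 cascade genes and for 8.13% of all genes, and a gap at least as wide was seen in 211 of 18417 genes (1.15%). The means were 9.53 ± 0.07 (SD, n = 2) with SHP2 sh1, 9.52 ± 0.06 (SD, n = 3) with SHP2 sh2 and 9.27 ± 0.06 (SD, n = 2) with Ctrl shRNA. The log2 fold change was 0.26 with SHP2 sh1, 0.25 with SHP2 sh2 and 0.26 for the mean, that is, a ratio of 1.19 (standard error 0.16, interval -0.12 to 0.63). It did not pass the threshold (unadjusted p = 0.153 and adjusted p = 0.758 from limma). Between the hairpins the difference was -0.02 (-0.43 to 0.39).

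MAPK3 kept its sign against the controls under all 17 alternative settings of the mean, from 0.21 to 0.57. Leaving out arrays could not turn that sign, because all 5 SHP2 hairpin arrays lay above both controls. The choice of probe could not either, since MAPK3 had 1 probe. The size of the MAPK3 change depended on the scaling, and cyclic loess and quantile normalization of the summarised values gave the upper end, 0.57 and 0.52. Without the 2 divergent arrays the mean was 0.24, SHP2 sh1 again being 1 array. The deposited value was identical on 3 of the 5 SHP2 hairpin arrays, SHP2 sh1 replicate 1 and SHP2 sh2 replicates 1 and 2. At least 3 equal values were found for 2341 of the 18417 genes (12.7%), and HRAS had 2 equal values. What such ties do to the spread of MAPK3 was not tested.

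**Figure D3:**
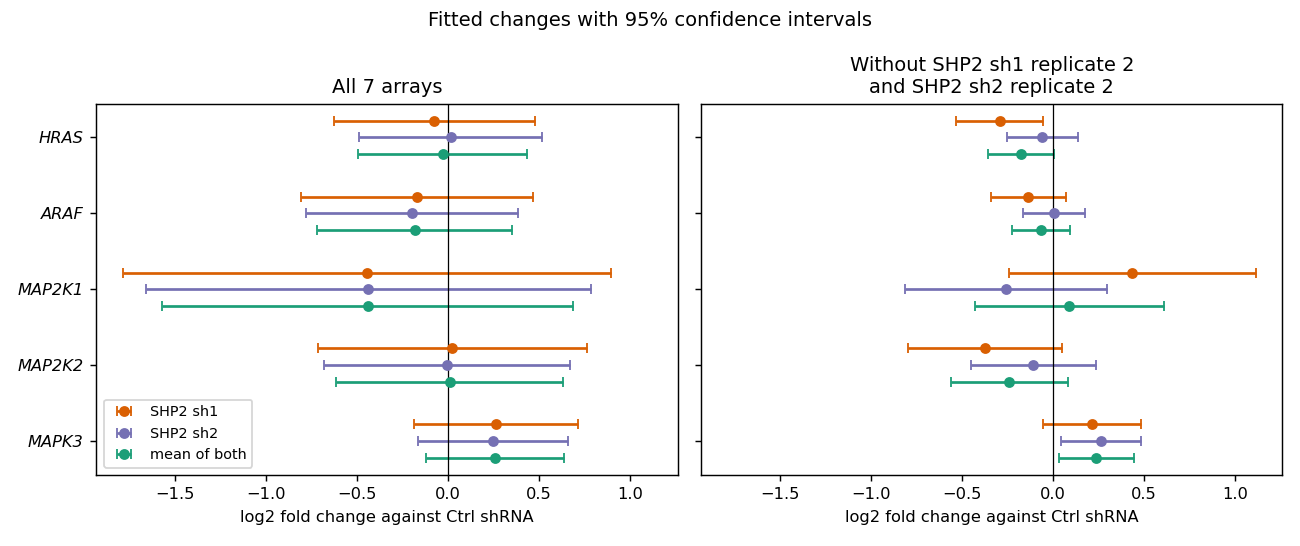
Log2 fold change against Ctrl shRNA of the 5 cascade genes with SHP2 sh1, SHP2 sh2 and the mean of both, as points with 95% confidence intervals from limma, for all 7 arrays (left) and without SHP2 sh1 replicate 2 and SHP2 sh2 replicate 2 (right). With all arrays each interval holds 0. Without the 2 arrays SHP2 sh1 is 1 array, whose intervals take their spread from the other groups. There the intervals of MAPK3 for SHP2 sh2 and for the mean lie above 0, and that of HRAS for SHP2 sh1 lies below 0. Neither gene passed the adjusted threshold.

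For the mean of both hairpins, the intervals of HRAS, ARAF, MAP2K2 and MAPK3 lay within 1 of 0 on the log2 scale, that is, inside a doubling or halving. The interval of MAP2K1 reached -1.57 and did not bound the change so closely. The median standard error over all genes was 0.26 with the 7 arrays and 0.09 without the 2 divergent ones. Those 2 were left out because they diverged in these same data, so the smaller value does not measure a gain in precision.

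Genes upstream of the cascade, downstream of it or beside it were taken from 7 lists with 61 measured genes, and none passed the adjusted threshold in any comparison. Among all 18417 genes, 42.0% had a log2 fold change below 0 over both hairpins, and the median was 0.075, or 0.0018 without the 2 divergent arrays. Of the 61 genes, 3 lay above both controls on all 5 SHP2 hairpin arrays and 3 below both, where 8.13% and 7.17% of all genes did.

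The exchange factors load RAS with GTP, and the GTPase-activating proteins switch it off. Of 7 exchange factor genes, 5 were above 0 and 2 below, with a median of 0.11, which turned to -0.07 without the divergent arrays, to -0.03 with cyclic loess and to -0.15 without the dimmest 25% of genes. With SHP2 sh1 alone 2 were above 0 and 5 below (median -0.03). SOS2, a partner of the adaptor GRB2, was 8.96 and 8.06 in the SHP2 sh1 group and 8.25, 7.81 and 8.66 in the SHP2 sh2 group, against 8.72 and 9.04 in the Ctrl shRNA group, which overlapped. RASGRP2, a calcium- and diacylglycerol-regulated exchange factor, was 6.88 and 7.37 under SHP2 sh1 and 7.11, 7.74 and 6.92 under SHP2 sh2, against 6.75 and 6.62 under Ctrl shRNA, and did not overlap (log2 fold change 0.51, adjusted p = 0.758 from limma, and 0.26 without the divergent arrays). RASGRF2, named here after its values were seen, was the other exchange factor above both controls throughout. Of 5 GTPase-activating proteins measured of 8 listed, 4 were below 0, with a median of -0.53. RASA2 had a log2 fold change of -0.88 and RASA3 of -0.53 (-0.19 and -0.13 without the divergent arrays), and each lay on SHP2 sh1 replicate 1, at 7.78 and 8.81, within the range of the controls (7.68 to 7.78 and 8.60 to 8.92). The median of this list was -1.05 on each of the 2 divergent arrays, between -0.23 and 0.05 on the other SHP2 hairpin arrays, and -0.11 in the fit without those 2 arrays.

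RAS proteins reach the membrane after prenylation, trimming, methylation and palmitoylation. Of 7 genes of these steps measured of 8 listed, 6 were below 0, with a median of -0.49. FNTA, the subunit shared by the protein prenyltransferases FTase and GGTase-I, was 8.77 and 8.07 in the SHP2 sh1 group and 8.31, 6.79 and 8.16 in the SHP2 sh2 group, against 8.80 and 8.83 in the Ctrl shRNA group. Its 5 SHP2 hairpin arrays lay below both controls, and the log2 fold change was -0.73 (interval -1.79 to 0.34, adjusted p = 0.758 from limma), or -0.32 in the fit without the divergent arrays. ICMT, the methyltransferase of the prenylated cysteine, had -0.66, or -0.25 without them. Leaving out the divergent arrays, the median of the list was -0.16, with 5 of 7 below 0.

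Of 13 scaffolds and modulators of the kinases, 8 were below 0 and 5 above (median -0.22), and without the 2 divergent arrays 8 were above and 5 below, and the median was 0.05. The median also turned under cyclic loess and quantile normalization, to 0.03 in each. ERBIN, a leucine-rich repeat protein that binds ERBB2, had -0.96 and CNKSR1, a scaffold of the connector enhancer of KSR family, 0.40. ERBIN was at -0.55 without SHP2 sh1 replicate 2 alone, at -0.63 without SHP2 sh2 replicate 2 alone and at -0.22 without both, and CNKSR1 at 0.25, 0.29 and 0.13. IQGAP1, a scaffold that binds MEK and ERK and was picked out after its values were seen, lay below both controls on all 5 SHP2 hairpin arrays. It was 9.51 and 8.86 on the divergent arrays and 10.46, 10.36 and 10.47 on the other SHP2 hairpin arrays, against 10.57 and 10.51 on the controls. Of 7 kinases downstream of ERK, 4 were below 0 and 3 above. Their median was -0.03 (0.07 with cyclic loess, 0.09 with quantile normalization) and their range -0.17 to 0.24. MKNK1, an ERK-activated kinase, had -0.13 and RPS6KA2, of the RSK family, 0.24, and both changed sign without the 2 divergent arrays, at 0.14 and -0.0032. MKNK1 also turned to 0.12 with cyclic loess and 0.07 with quantile normalization. Of 12 kinases of the other MAP kinase cascades measured of 14 listed, 7 were above 0 and 5 below, with a median of 0.13, or 0.0044 without SHP2 sh1 replicate 1. With SHP2 sh1 alone 5 were above 0 and 7 below (median -0.05). MAP2K6, which activates p38, was 4.74 and 4.89 in the SHP2 sh1 group and 4.87, 5.54 and 4.85 in the SHP2 sh2 group, against 4.55 and 4.53 in the Ctrl shRNA group, with a log2 fold change of 0.41 (adjusted p = 0.758 from limma, and 0.26 without the divergent arrays). MAPK8, which encodes JNK1, had -0.53, or -0.25 without SHP2 sh1 replicate 2 alone and -0.11 without both divergent arrays.

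The activity of the cascade is often read from the RNA of genes that ERK induces. Of 10 such output genes, 9 were below 0 for the mean of both hairpins and DUSP4 above, with a median of -0.35, and 0 passed the adjusted threshold. The list median was -0.85 and -1.17 on the 2 divergent arrays, and 0.24, -0.23 and -0.02 on SHP2 sh1 replicate 1 and SHP2 sh2 replicates 1 and 3. With the 2 divergent arrays left out, 7 were above 0 and 3 below, and the median was 0.09. EPHA4, an ephrin receptor, was the gene of this list below both controls on all 5 SHP2 hairpin arrays, measuring 7.79 and 7.87 in the SHP2 sh1 group and 7.50, 7.27 and 6.87 in the SHP2 sh2 group, against 8.37 and 8.69 in the Ctrl shRNA group (log2 fold change -1.01, standard error 0.23, unadjusted p = 0.0034 and adjusted p = 0.758 from limma). DUSP6, a phosphatase of ERK, was 10.13 and 8.79 under SHP2 sh1 and 8.98, 7.70 and 9.37 under SHP2 sh2, against 9.70 and 9.91 under Ctrl shRNA, so that SHP2 sh1 replicate 1 lay above both controls and the other SHP2 hairpin arrays below them. In the fit without the divergent arrays EPHA4 was at -1.05 and DUSP6 at -0.15. The 5 cascade genes themselves had list medians of -0.13 and 0.14 with SHP2 sh1, and of -0.0050, 0.16 and -0.05 with SHP2 sh2.

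**Figure D4:**
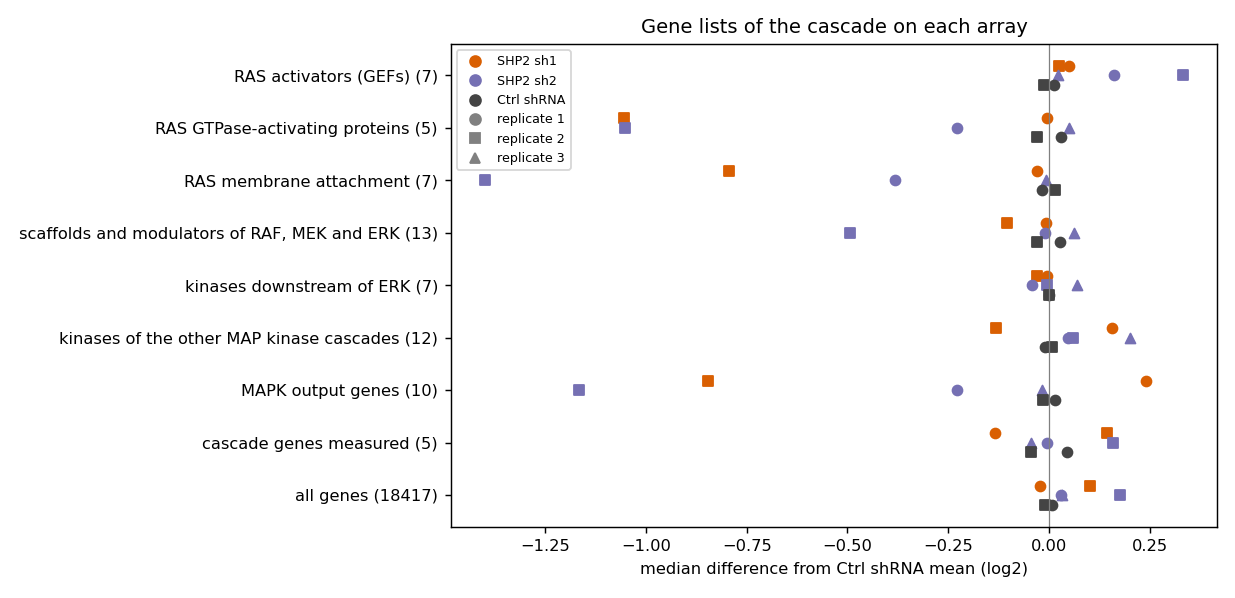
Median difference from the Ctrl shRNA mean (log2) of each gene list on each array, with the number of genes in brackets, coloured by hairpin and with symbols for replicate numbers. On SHP2 sh1 replicate 2 and SHP2 sh2 replicate 2 the medians of the output genes lie at -0.85 and -1.17. Those of the GTPase-activating proteins lie at -1.05 and -1.05, and those of the 5 cascade genes at 0.14 and 0.16. HRAS, MAP2K2 and MAPK3 were above the control mean on both arrays, and ARAF and MAP2K1 below it.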

How the data were processed

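RNA from SUM159 cells (an RNeasy column kit per the labels, TRIzol per the study's array methods) was hybridized to Affymetrix Human Gene 1.0 ST arrays. The deposited log2 expression values were made by the authors with oligo (its version is not given in the sources used here) by robust multi-array averaging, that is, background correction, quantile normalization across arrays and summary of probes. They ran from 1.94 to 13.9 and were used as given. Of 33297 probes, 19460 had 1 gene symbol in the platform annotation, 1754 several and 12083 were not listed. Symbols were updated by gene ID through the RefSeq table of GRCh38.p14 (19429 IDs found), and the probe of largest interquartile range stood for each gene. Quartiles of level used the mean over the 7 arrays.

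A model of 3 group means was fitted with limma 3.58.1 (lmFit and eBayes, R 4.3.3) to the 7 arrays together. Two-sided p-values were adjusted by Benjamini and Hochberg's method over 18417 genes, and 0.05 was the threshold. MAP2K2 minus MAP2K1 was compared by an exact permutation test, and the other 2 planned pairs were not run, because their partners are not analysed here. The procedure was tested on simulated arrays. The genes, lists and alternatives were chosen with earlier results of these data known. Named genes were the cascade genes, PTPN11, the 2 of smallest p in each list for the mean of both hairpins, and the 2 nearest in profile to each cascade gene. Promoter sequences came from RefSeq (GRCh38.p14), where all 5 genes matched. Alternatives were other probe choices, a filter on dim genes, cyclic loess, quantile normalization, median centring, a trend in eBayes, array weights, a replicate block, a fit of only the groups compared, single arrays left out, and the 2 divergent arrays (replicate 2 of each SHP2 hairpin) left out. With 2 or 3 arrays per group, their number limits the precision.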

Additional observations from a re-analysis of the deposited data

How the results depend on the processing

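No cascade gene passed the threshold under any alternative, and the counts of all genes past it stayed at 0 except with array weights, where 122 genes passed with SHP2 sh2, PTPN11 among them (-1.41, adjusted p = 0.030 from limma). Values below are log2 fold changes that changed sign, and their cause was not tested. Cyclic loess gave 0.090 (SHP2 sh1) and 0.19 (mean of both hairpins) for HRAS, 0.017 (SHP2 sh1), 0.10 (SHP2 sh2), 0.060 (mean) and 0.087 (between hairpins) for ARAF, 0.20 (SHP2 sh2) and 0.061 (between hairpins) for MAP2K2, 0.11 (between hairpins) for MAPK3 and 0.12 (mean) for MKNK1. Quantile normalization gave, in the same order, 0.12 and 0.21, then 0.021, 0.061, 0.041 and 0.040, then 0.25 and 0.038, then 0.12, then 0.070. Without both divergent arrays, HRAS was -0.058 (SHP2 sh2), ARAF 0.0063 (SHP2 sh2) and 0.14 (between hairpins), MAP2K1 0.44 (SHP2 sh1), 0.090 (mean) and -0.69 (between hairpins), MAP2K2 -0.37 (SHP2 sh1), -0.24 (mean) and 0.27 (between hairpins), MAPK3 0.049 (between hairpins), MKNK1 0.14 and RPS6KA2 -0.0032 (mean), and the shift of MAP2K2 over MAP2K1 -0.17. Array weights gave -0.063 for HRAS (SHP2 sh2) and 0.16 for ARAF (between hairpins), and median centring -0.017 for MAP2K1 (between hairpins).

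Leaving out single arrays, HRAS ran from -0.29 to 0.14 (SHP2 sh1), -0.13 to 0.31 (between hairpins), -0.058 to 0.060 (SHP2 sh2) and -0.14 to 0.079 (mean). ARAF ran from -0.30 to 0.0063 (SHP2 sh2) and -0.13 to 0.18 (between hairpins), MAP2K1 from -1.33 to 0.44 (SHP2 sh1) and -0.87 to 0.89 (between hairpins), and MAP2K2 from -0.42 to 0.37 (between hairpins), -0.37 to 0.42 (SHP2 sh1), -0.11 to 0.11 (SHP2 sh2) and -0.19 to 0.21 (mean). MAPK3 ran from -0.069 to 0.033 and PTPN11 from -0.21 to 0.75 between hairpins, and MKNK1 from -0.27 to 0.0095 (mean). MAPK3 against the controls changed sign in none of these settings. Leaving out arrays could not turn that sign, because all 5 SHP2 hairpin arrays lay above both controls.

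The labels give the groups the same replicate numbers, without saying what a number marks. Arrays of 1 number were correlated as deviations from their group means. The values were -0.04 and -0.04 (SHP2 sh1 with Ctrl shRNA) and -0.02 and -0.03 (SHP2 sh2 with Ctrl shRNA). Between hairpins they were 0.60 and 0.80, the 2 divergent arrays having the 0.80. In a group of 2 arrays the deviations are equal and opposite, so the values for SHP2 sh1 with Ctrl shRNA are 1 number. The 0.60 likewise uses the deviation of the divergent SHP2 sh1 replicate 2 with its sign turned. It is therefore not independent of the 0.80, and these values cannot show that arrays of 1 number belong together. With the replicate block the count of calls stayed at 0, MAP2K1 was -0.18 and MAP2K2 0.086 between hairpins, and MAP2K2 was 0.11 with SHP2 sh2.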

Other observations

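For each cascade gene, the 2 genes with the nearest profile were sought among all 18417, by the root mean square difference of their log2 shifts from the control mean on the 5 SHP2 hairpin arrays. The nearest to HRAS were TIGD1 (0.03) and RPS6KA4 (0.04), a kinase that ERK and p38 activate. The shifts of RPS6KA4 were -0.27 and 0.21 (SHP2 sh1) and -0.0100, 0.18 and -0.0100 (SHP2 sh2), beside -0.29 and 0.14, then -0.07, 0.16 and -0.05, for HRAS. The nearest to ARAF were LRRC41 (0.04) and SEC16A (0.06), to MAP2K1 ELP4 (0.11) and TMEM156 (0.11), to MAP2K2 GARNL3 (0.05) and PAXX (0.05), and to MAPK3 LUZP4 (0.05) and ACOD1 (0.05). Among the cascade genes, HRAS and MAP2K2 lay closest together (0.16) and MAP2K1 and MAP2K2 farthest apart (1.00). These distances describe 5 arrays, 2 of which were divergent. A search of this kind always returns nearest genes, and no background distance was computed. Whether nearness marks any tie between the genes, RPS6KA4 and HRAS included, was not tested.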
